A study of Homo sapiens with 9 samples.

Results

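The genes described here are 9 genes of fatty acid oxidation and lipid storage: the acyl-CoA thioesterases ACOT1 and ACOT2, the carnitine palmitoyltransferases CPT1A and CPT2, the β-oxidation enzymes ACADVL, ACADM and HADHA, the lipid droplet protein PLIN2 and the fatty acid binding protein FABP5. They were chosen by symbol for their place in this pathway, with earlier results of these data known, out of 16199 genes listed in at least 1 library. A gene without an entry in a library was counted as 0 there. RNA was sequenced from HaCaT cells, an immortalized human keratinocyte line of wild-type genotype, so that all values come from a single line. Cells were grown in DMEM with 10% fetal bovine serum, and the 3 groups of 3 libraries were all kept in medium without serum after they had become confluent. The groups were untreated cells, cells given EGF at 10 nM for 24 h, and cells given bleogen pB1 (pB1) at 1 µM for 24 h, where bleogen pB1 is a miniprotein from a cactus that activates the EGF receptor. The doses of EGF and pB1 differed, and the question of the design is how each of them changes gene expression in keratinocytes.

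A fatty acid is first joined to coenzyme A, and the acyl-CoA is then burned, stored or split again. Long chains enter mitochondria on carnitine, which CPT1 adds at the outer membrane and CPT2 removes inside, and this entry is inhibited by malonyl-CoA. Inside, acyl-CoA dehydrogenases and the trifunctional protein shorten the chain step by step. Thioesterases cut acyl-CoA back to free fatty acid and coenzyme A, and perilipins coat the droplets in which neutral lipid is kept. In the epidermis fatty acids also supply the lipids of the skin barrier.

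The libraries held 20288417 to 21320994 expected counts, so that 3 counts, taken as the smallest level shown, were 0.141 to 0.148 CPM (counts scaled to library size), which covers counting error only. This level uses the raw library totals, whereas all other CPM values also use a scaling factor per library. All 10 keratinocyte markers were detected, with a summed level of 12988 to 13985 CPM in untreated, 15346 to 15582 in EGF-treated and 13541 to 14807 in pB1-treated cells. After EGF 5 of these 10 rose, among them KRT8 from 1182 to 4380 CPM and KRT18 from 419 to 1469 CPM. The 3 that fell were KRT5 (7811 to 3604 CPM), DSP (996 to 611 CPM) and CDH1 (444 to 282 CPM). The higher sum after EGF thus covers opposite changes of single markers. Markers of other cell types had summed levels far below these. The 7 fibroblast markers, of which 5 reached 3 counts in any library, summed to 7.62 to 9.31, 1.30 to 2.00 and 6.08 to 9.17 CPM in the same order, and the 5 melanocyte markers (2 reached 3 counts, TYR at 0) to 1.35 to 1.58, 0.750 to 1.35 and 0.928 to 1.53 CPM. For the 5 adipocyte markers (2 reached 3 counts, LPL at 0) the sums were 0.771 to 1.10, 1.40 to 1.93 and 0.557 to 1.22 CPM. CD68, a macrophage gene that other cells also express, was at 11.8 ± 0.318 CPM in untreated, 20.2 ± 1.14 in EGF-treated and 10.7 ± 0.699 in pB1-treated cells, and it rose after EGF (0.77, adjusted p = 1.1e-05, edgeR). The fibroblast sum was thus lower, and the adipocyte sum and CD68 higher, in all EGF-treated libraries, and their part in the results below was not tested. Most of the adipocyte sum came from 1 gene, CIDEC, at 0.822 CPM in untreated and 1.48 CPM in EGF-treated cells. The other 4 adipocyte markers stayed under 10 counts in every library.

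Per gene length, ACADVL and HADHA were far above the others of the 9 genes. In untreated cells ACADVL stood highest of the 9 genes at 130 ± 2.46 FPKM (fragments scaled for gene length and depth, mean ± SD, n = 3), above 96.5% of listed genes, and HADHA followed at 123 ± 2.80 FPKM. ACADM (23.0 ± 0.553 FPKM) and CPT1A (22.5 ± 1.04 FPKM) overlapped, and CPT2 lay below both at 15.8 ± 0.371 FPKM. ACOT1, PLIN2 and ACOT2 had 7.37, 7.31 and 7.22 FPKM and did not differ beyond their spread. After EGF the order of the lower genes was another one. CPT1A, at 29.2 FPKM, stood above ACADM at 20.6 FPKM with no overlap, PLIN2 (11.9 FPKM) overlapped CPT2 (12.1 FPKM), and ACOT2 and ACOT1 came after them at 2.70 and 1.68 FPKM. In pB1-treated cells CPT1A (32.97 FPKM) was likewise above ACADM (24.7 FPKM), PLIN2 (8.54 FPKM) above ACOT2 (5.54 FPKM), and ACOT2 above ACOT1 (2.78 FPKM), again with no overlap.

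**Figure D1:**
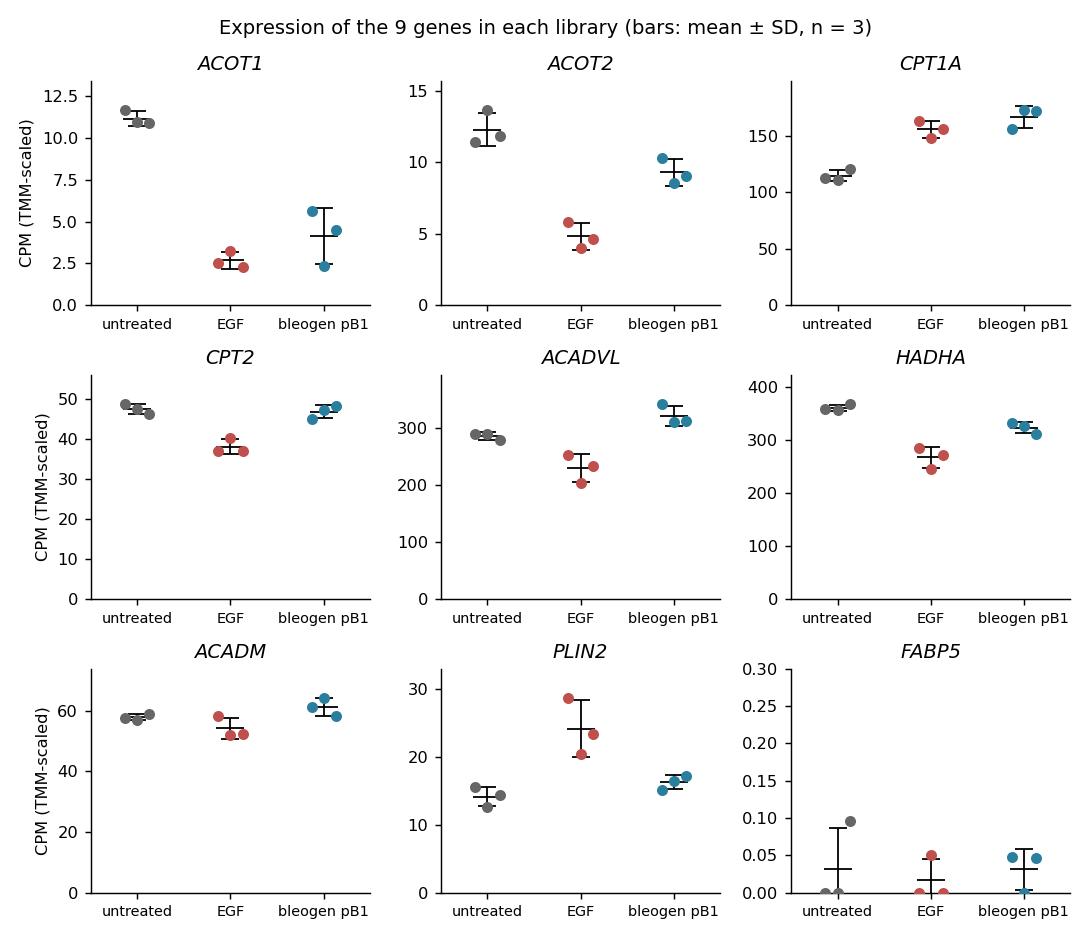
Level of each of the 9 genes in CPM in every library, with 3 untreated, 3 EGF-treated and 3 pB1-treated libraries as points and bars for the group mean ± SD. ACOT1 lies at 10.9 to 11.7 CPM in untreated cells and below 6 CPM in every treated library, and PLIN2 is highest in the 3 EGF-treated libraries.

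Of the 9 genes, 8 passed the filter on low counts and were tested with edgeR, and FABP5 did not pass it. A gene is said to have risen or fallen where the adjusted p was at most 0.05 and the log2 fold change at least 0.5 in size. After EGF, 1 of the 8 rose (PLIN2) and 2 fell (ACOT1 and ACOT2), where 36.9% of the 12394 tested genes were called. At the adjusted p alone 7 of 8 passed, against 66.1% of all genes, and the groups did not overlap for 7 of 8, against 70.4%. The median log2 fold change of the 8 was -0.32, and that of all tested genes -0.013. After pB1, 1 rose (CPT1A) and 1 fell (ACOT1), where 1.48% of all genes were called. These 2 also were the ones that passed the adjusted p alone, against 4.11% of all genes, and neither passed a test against the fold limit itself (glmTreat, 0 of 8). The groups did not overlap for 5 of 8, against 29.1%. Between EGF and pB1, 1 of 8 was higher with EGF (PLIN2) and 1 lower (ACOT2), where 28.8% of all genes were called. At the adjusted p alone 6 of 8 passed, against 58.2%, and the groups did not overlap for 6 of 8, against 62.4%. The 9 genes were chosen with earlier results of these data known, so that these shares are a description and not a test of the pathway. Both treatments were set against the same untreated libraries. Nothing states that the 3 libraries of a group came from separate cultures, so that the p-values measure the spread between these samples. An exact permutation test of 3 against 3 cannot give a p under 0.1, and it gave 0.1 for each gene whose groups did not overlap.

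**Figure D2:**
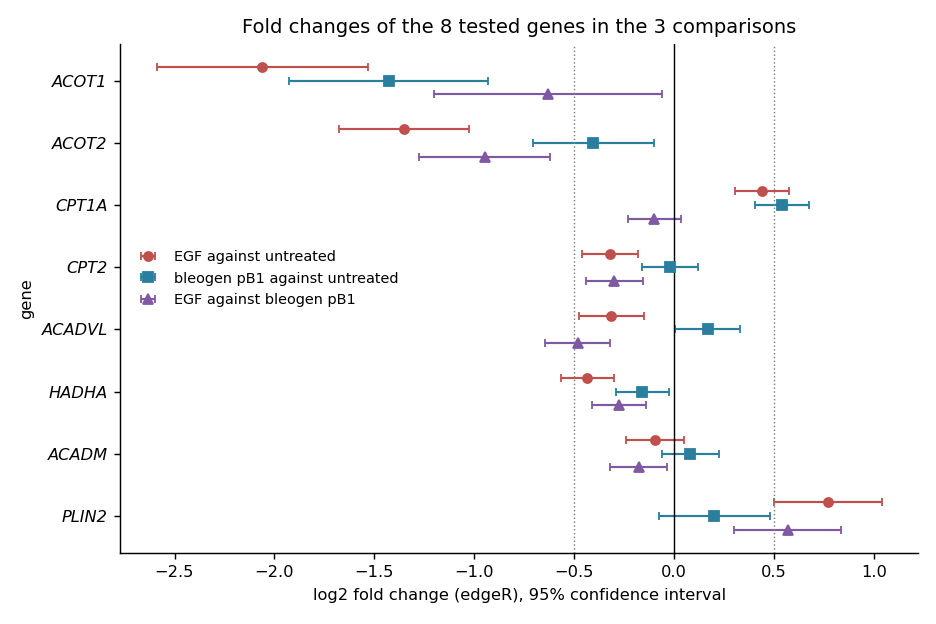
Log2 fold change of the 8 tested genes in each of the 3 comparisons, with points for the edgeR estimate and bars for its 95% confidence interval, and dotted lines at the fold limit of 0.5 in either direction. ACOT1 is the lowest point after EGF, at -2.06, and after pB1, at -1.43, and CPT1A is to the right of 0 after both.

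ACOT1 and ACOT2 code for the cytosolic and the mitochondrial form of a long-chain acyl-CoA thioesterase, and they lie next to each other on chromosome 14 (GRCh38, 73537143 to 73543796 and 73567620 to 73575658, both on the plus strand, 3 exons each). Their coding sequences are near copies, with 13 mismatches in 1263 aligned bases (99% identity), of which 7, 5 and 1 fall in the coding exons 1, 2 and 3 of ACOT2. The 60 coding bases of ACOT2 that hold the most mismatches, 4, are shown because, within the aligned part, reads of the genes differ only at such bases. A further 186 coding bases of ACOT2 have no counterpart in ACOT1. The 60 bases shown lie in the aligned part and are coding bases 549 to 608 in exon 1, chr14:73569789-73569848 on the plus strand of GRCh38. Capitals mark the bases that differ in ACOT1.
ACOT2 exon 1: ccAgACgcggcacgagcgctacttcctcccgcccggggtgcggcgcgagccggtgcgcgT
Of all stretches of 100 bases, 33.9% of those in the ACOT1 transcript and 35.3% of those in the ACOT2 transcript occur unchanged in the other, so that the division of reads between the genes is uncertain. The next genes of the cluster, ACOT4 and ACOT6, share 77% and 77.8% of aligned coding bases with ACOT1 and no stretch of 100 bases.

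ACOT1 fell after both treatments. It was at 11.7, 10.95 and 10.9 CPM in untreated libraries 1 to 3, at 2.499, 3.22 and 2.31 CPM after EGF, and at 5.64, 2.32 and 4.49 CPM after pB1. All treated libraries lay below all untreated ones, and the EGF and pB1 ranges overlapped, with the second pB1 library among the EGF values. The log2 fold change was -2.06 after EGF (SE 0.24, adjusted p = 1.0e-05, edgeR), a level 0.240 times that of untreated cells, and -1.43 after pB1 (SE 0.23, adjusted p = 0.0041). In bulk RNA, fewer cells expressing a gene and less RNA per cell cannot be told apart. EGF against pB1 gave -0.63 (95% interval -1.20 to -0.06, adjusted p = 0.055), which did not pass. This value rests on single libraries. It passed without the second pB1 library (-0.91, adjusted p = 0.00098) or the second EGF library (-0.77, adjusted p = 0.036), and it was -0.35 (adjusted p = 0.27) without the first pB1 library and -0.53 (adjusted p = 0.17) without the third EGF library.

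ACOT2 fell after EGF and not, by this test, after pB1. It was at 11.4, 13.7 and 11.8 CPM in untreated cells, at 5.85, 3.98 and 4.62 CPM after EGF and at 10.3, 8.54 and 9.04 CPM after pB1, and the 3 groups did not overlap. The log2 fold change was -1.35 after EGF (SE 0.15, adjusted p = 5.7e-06) and -0.40 after pB1 (95% interval -0.71 to -0.10, adjusted p = 0.11). EGF against pB1 gave -0.95 (SE 0.15, adjusted p = 0.00018), so that ACOT2 was lower with EGF. ACOT1 took 47.6% ± 2.99 of the counts of both genes in untreated cells, 35.9% ± 7.67 after EGF and 29.95% ± 7.44 after pB1 (SD, n = 3). The share did not overlap that of untreated cells after pB1 (exact permutation p = 0.1, two-sided) and did after EGF (exact permutation p = 0.2). The overlap after EGF rests on the second EGF library, at 44.497%, and the second untreated library, at 44.495%. EGF and pB1 overlapped in this share (exact permutation p = 0.5).

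Since reads of the near copies may be exchanged, the summed counts were tested too. ACOT1 and ACOT2 together had 23.5 ± 0.997 CPM in untreated, 7.49 ± 0.752 in EGF-treated and 13.4 ± 2.55 in pB1-treated cells. The sum fell after EGF (-1.64, SE 0.13, adjusted p = 4.6e-07, edgeR) and after pB1 (-0.81, SE 0.13, adjusted p = 0.0032), and it was lower with EGF than with pB1 (-0.84, SE 0.14, adjusted p = 0.00022). The fall of ACOT1 after pB1 is thus larger by over 1.5 times when ACOT1 is counted alone than in the sum.

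CPT1A, a carnitine palmitoyltransferase that malonyl-CoA inhibits and that acts at the entry step for long-chain acyl-CoA, was higher in all treated libraries. Its gene lies on chromosome 11 from 68754620 to 68844410 on the minus strand (GRCh38). It was at 113, 111 and 120.3 CPM in untreated cells, at 163, 148 and 156 CPM after EGF, and at 156, 173 and 172 CPM after pB1. Treated and untreated ranges did not overlap, and the EGF and pB1 ranges did. CPT1A rose after pB1 by 0.54 on the log2 scale (SE 0.06, adjusted p = 0.00051, edgeR), which is 1.45 times the untreated level. After EGF it was 0.44 higher (SE 0.06, adjusted p = 4.6e-05), short of the fold limit, and EGF against pB1 gave -0.10 (95% interval -0.23 to 0.04, adjusted p = 0.19).

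CPT2, which removes carnitine on the inner membrane, was lower after EGF. It was at 48.7, 47.6 and 46.2 CPM in untreated cells, at 36.9, 40.2 and 37.0 CPM after EGF, and at 45.0, 47.2 and 48.1 CPM after pB1. EGF-treated libraries lay below all others, and pB1 and untreated ranges overlapped. The log2 fold change was -0.32 after EGF (adjusted p = 0.00078, short of the fold limit) and -0.02 after pB1 (95% interval -0.16 to 0.12, adjusted p = 0.87). The ratio of CPT1A to CPT2 in FPKM was 1.37, 1.38 and 1.53 in untreated cells, 2.59, 2.17 and 2.48 after EGF, and 2.02, 2.14 and 2.11 after pB1. It was above the untreated range in every treated library.

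**Figure D3:**
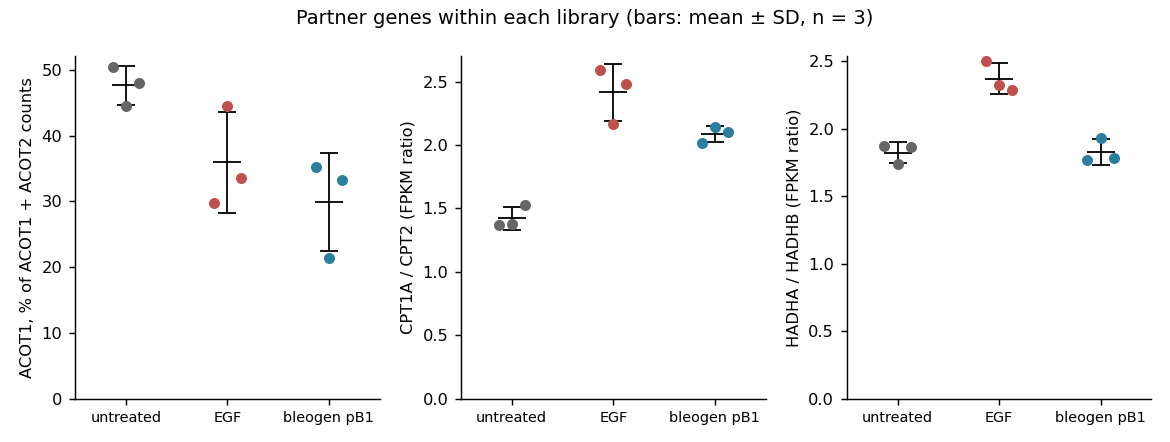
Percentage of ACOT1 in the counts of ACOT1 and ACOT2, and the FPKM ratios of CPT1A to CPT2 and of HADHA to HADHB, in each library (points) with the group mean ± SD (bars). The CPT1A to CPT2 ratio is 1.37 to 1.53 in untreated cells and above 2 in all treated libraries, and the HADHA to HADHB ratio is above 2 in the 3 EGF-treated libraries and below 2 in all others.

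ACADVL, the dehydrogenase for very long chains, was at 291, 290 and 279 CPM in untreated cells, at 253, 204 and 234 CPM after EGF, and at 343, 310.3 and 313 CPM after pB1. The 3 groups did not overlap, with EGF lowest and pB1 highest. The log2 fold change was -0.31 after EGF (SE 0.08, adjusted p = 0.0025) and 0.17 after pB1 (95% interval 0.01 to 0.33, adjusted p = 0.21), and neither passed both limits. EGF against pB1 gave -0.48 (SE 0.08, adjusted p = 0.00015), just short of the fold limit. It passed in several alternatives, among them those without the first EGF library (-0.55) or without the second pB1 library (-0.50).

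ACADM, the dehydrogenase for medium chains, passed no test against untreated cells. It was at 57.7, 57.0 and 58.9 CPM in untreated cells, at 58.2, 51.9 and 52.5 CPM after EGF and at 61.2, 64.2 and 58.3 CPM after pB1, and each treated group overlapped the untreated one. The log2 fold changes were -0.10 after EGF (95% interval -0.24 to 0.05, adjusted p = 0.22) and 0.08 after pB1 (95% interval -0.06 to 0.22, adjusted p = 0.50). EGF-treated cells were below pB1-treated cells without overlap (-0.18, adjusted p = 0.034), short of the fold limit.

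HADHA codes for the α subunit of the trifunctional protein, which carries out the later steps of the cycle on long chains. It was at 359, 357 and 368 CPM in untreated cells, at 285, 246 and 272 CPM after EGF, and at 332, 327 and 313 CPM after pB1. The 3 groups did not overlap, and EGF was lowest. The log2 fold change was -0.43 after EGF (SE 0.06, adjusted p = 4.5e-05), short of the fold limit, and -0.16 after pB1 (95% interval -0.29 to -0.03, adjusted p = 0.15). With upper-quartile scaling, which shifted the median of all genes to -0.118, the value after EGF was -0.54 and passed.

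HADHB, the β subunit of the same protein, starts 307 bases from HADHA on chromosome 2 and is read in the opposite direction. It is not among the 9 genes and was named after its values were seen, as the partner of HADHA. It fell after EGF from 142 ± 5.05 to 80.7 ± 4.82 CPM (-0.81, SE 0.06, adjusted p = 3.3e-07, edgeR), and it had 127 ± 6.89 CPM after pB1 (-0.16, adjusted p = 0.15). The ratio of HADHA to HADHB in FPKM was 1.82 ± 0.0758 in untreated cells, 2.37 ± 0.114 after EGF and 1.83 ± 0.0932 after pB1. The EGF-treated libraries lay above all others (exact permutation p = 0.1, two-sided), whereas pB1 and untreated overlapped (exact permutation p = 1.0).

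PLIN2 codes for perilipin 2, the coat protein of lipid droplets in most cells. It lies on the minus strand of chromosome 9 (GRCh38, 19108375 to 19149290). It was at 15.5, 12.7 and 14.3 CPM in untreated cells, at 28.7, 20.4 and 23.4 CPM after EGF, and at 15.1, 16.5 and 17.2 CPM after pB1. The EGF-treated libraries lay above all others, and pB1 overlapped untreated. PLIN2 rose after EGF by 0.77 on the log2 scale (SE 0.13, adjusted p = 0.00014, edgeR), 1.71 times the untreated level. After pB1 the difference was 0.20 (95% interval -0.07 to 0.48, adjusted p = 0.38). EGF exceeded pB1 by 0.57 (SE 0.12, adjusted p = 0.0017), but without the first EGF library this was 0.43 and did not pass. In the same EGF-treated libraries the adipocyte markers summed to at most 1.93 CPM with LPL at 0, and 4 of these 5 markers stayed under 10 counts in every library. The other one, CIDEC, itself a droplet protein and named after its values were seen, rose after EGF from 0.822 to 1.48 CPM (0.85, adjusted p = 0.031, edgeR), and DESeq2 did not call it (adjusted p = 0.073).

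The 250 bases before the start of the main PLIN2 transcript (19127492) are shown because it is the member that rose with EGF and not, by this test, with pB1. They are chr9:19127493-19127742 on the minus strand, from RefSeq on GRCh38.p14. They hold no annotated exon but lie within the gene's span, since other annotated transcripts start up to 19149290. Capitals mark the E-box CACGTG, the only one of the 6 motifs searched that was found there.
PLIN2 promoter: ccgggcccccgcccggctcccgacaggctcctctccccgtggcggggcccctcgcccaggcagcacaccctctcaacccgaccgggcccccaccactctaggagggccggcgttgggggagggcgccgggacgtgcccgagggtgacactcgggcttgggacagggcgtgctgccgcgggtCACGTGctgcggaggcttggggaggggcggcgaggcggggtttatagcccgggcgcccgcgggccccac
Promoter windows of this length were searched on both strands for 7 of the 9 genes, which had an entry, and for 35116 windows in all. The E-box is in 6.34% of all windows and in 1 of the 7 genes. AGGTCA, the sequence to which PPAR and related nuclear receptors bind, is in 12.1% of all windows and in 0 of the 7, and so are AGGTCANAGGTCA, the pair bound by PPAR with its partner RXR (0.0171% of all windows), and TCAAGGTCA (0.319%), which contain it. TGANTCA, the AP-1 sequence, is in 6.57% of all windows and in ACADVL, and the sterol sequence TCACNCCAC in 0.883% and in none of the 7. A match here is a description of letters and not a site.

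FABP5, the epidermal fatty acid binding protein and known as a keratinocyte gene, was listed at or near 0. It had 0, 0 and 2 counts in untreated, 0, 1 and 0 in EGF-treated and 1, 0 and 1 in pB1-treated libraries, all below the 3 counts taken as the smallest level shown. No fold is given. The RefSeq table holds 15 FABP5 pseudogenes, and 0 of them had an entry in the libraries, and whether reads of FABP5 were lost in mapping to its copies was not tested. The low values therefore need not be its expression.

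The other genes of the pathway were counted in 7 lists. Over all tested genes 15.1% rose and 21.8% fell after EGF (36.9% in all), and 0.218% rose and 1.26% fell after pB1. Among the thioesterases other than ACOT1 and ACOT2, 8 of 11 were tested, of which 2 rose and 2 fell after EGF, and 0 rose and 1 fell after pB1. ACOT7, a thioesterase of long-chain acyl-CoA known from the brain, rose after EGF from 64.4 ± 1.40 to 181 ± 10.5 CPM (1.49, SE 0.09, adjusted p = 2.6e-08, edgeR) and had 76.7 ± 10.99 CPM after pB1 (0.25, adjusted p = 0.11). ACOT9, a mitochondrial thioesterase, rose after EGF from 43.6 to 63.7 CPM (0.55, adjusted p = 7.1e-06). BAAT, which conjugates bile acids and has thioesterase activity, fell after both, by a log2 fold change of -2.28 with EGF (adjusted p = 2.7e-05) and -1.19 with pB1 (adjusted p = 0.028), from 2.34 CPM to 0.475 and 1.02 CPM. DESeq2 gave no adjusted p for BAAT after pB1 (unadjusted p = 0.0011). ACOT1 and ACOT2 therefore fell after EGF while ACOT7 and ACOT9 rose.

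In fatty acid uptake, activation and the carnitine shuttle, 15 of 18 genes were tested, of which 3 rose and 9 fell after EGF (median log2 fold change -0.81). After pB1, 0 rose and 1 fell (median -0.22). ACSL1, which makes long-chain acyl-CoA, fell after both, from 121 ± 1.74 CPM to 65.5 ± 1.26 with EGF (-0.88, adjusted p = 1.0e-06, edgeR) and to 76.8 ± 9.69 with pB1 (-0.65, adjusted p = 0.00064). CROT, the octanoyltransferase of peroxisomes, fell after EGF from 36.3 to 13.7 CPM (-1.40, adjusted p = 1.0e-08). CPT1C, the brain form of CPT1, fell from 3.11 to 1.29 CPM (-1.27, adjusted p = 0.00057), and SLC27A2, which activates very long chains, from 61.5 to 25.98 CPM (-1.24, adjusted p = 7.7e-08).

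Of the other mitochondrial β-oxidation enzymes, 16 of 17 were tested, of which 0 rose and 7 fell after EGF (median -0.09). After pB1 edgeR and DESeq2 called 0 of them, and 5 had an unadjusted p under 0.05. DECR1, the reductase for unsaturated chains, fell after EGF from 58.2 to 32.7 CPM (-0.83, adjusted p = 7.4e-07). ACAD10 and ACADS, the latter the dehydrogenase for short chains, fell by a log2 fold change of -0.92 (adjusted p = 2.9e-06) and -0.91 (adjusted p = 0.0014). In peroxisomal β-oxidation, 13 of 15 were tested, of which 0 rose and 5 fell after EGF (median -0.29), a share of genes called near that of all genes. After pB1 both tools called 0, and 2 had an unadjusted p under 0.05. EHHADH, the bifunctional enzyme of peroxisomes, fell after EGF from 9.64 to 3.54 CPM (-1.44, adjusted p = 5.3e-07), and PHYH and PECR fell by -0.76 (adjusted p = 0.00095) and -0.69 (adjusted p = 0.00056).

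Of the genes of droplet coat, storage and lipolysis beside PLIN2, 15 of 22 were tested, of which 3 rose and 1 fell after EGF (median 0.08), a smaller share than over all genes, and 0 rose and 1 fell after pB1. PLIN4, another perilipin, fell after EGF from 5.70 to 1.58 CPM (-1.85, adjusted p = 1.1e-06, edgeR), in contrast to PLIN2. SOAT1, which makes cholesterol esters, rose from 52.3 to 87.7 CPM (0.74, adjusted p = 2.9e-06), and GPAM, the first enzyme of glycerolipid synthesis, from 21.4 to 32.3 CPM (0.60, adjusted p = 0.00012). LPIN1, a phosphatidate phosphatase, was at 268, 246 and 282 CPM in untreated, 266, 292 and 285 after EGF, and 155, 155 and 157 after pB1. It fell after pB1 (-0.77, SE 0.06, adjusted p = 0.00010) and did not pass after EGF (0.08, adjusted p = 0.25), and EGF and pB1 differed by 0.85 (adjusted p = 2.3e-07).

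**Figure D4:**
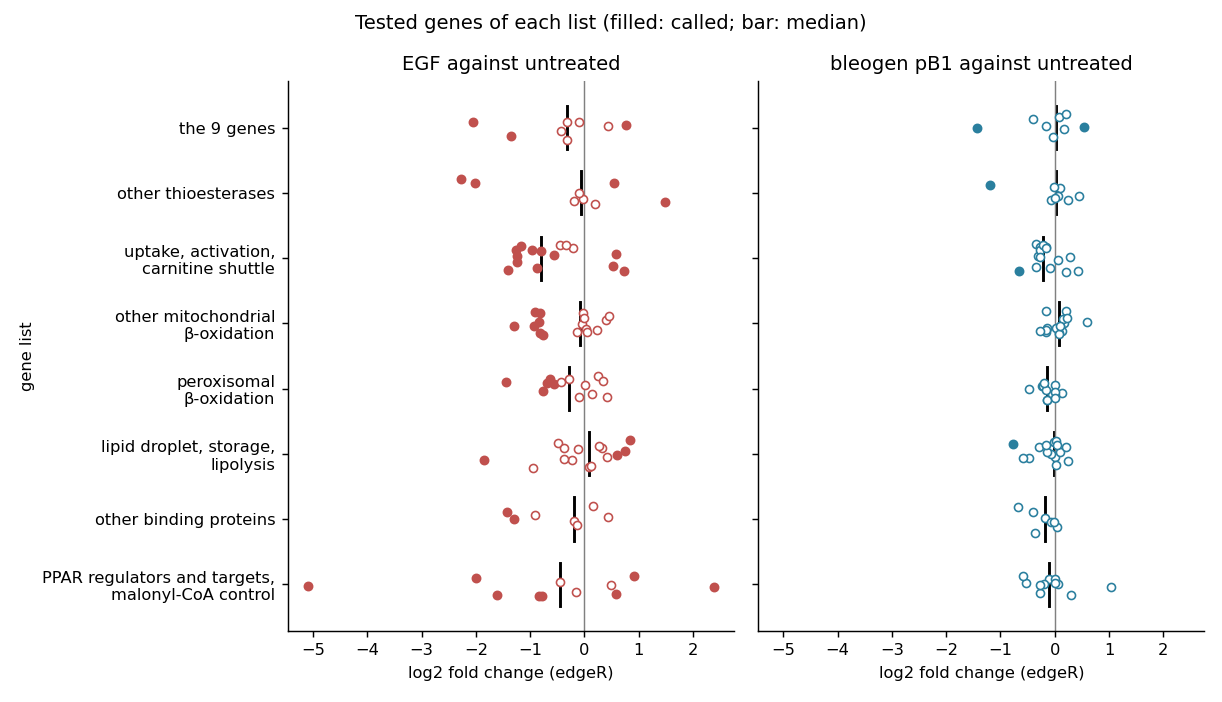
Log2 fold change (edgeR, horizontal axis) of each tested gene of the 9 genes and of the 7 pathway lists, after EGF (left) and after pB1 (right), with filled points for genes that rose or fell, open points for the others and a bar for the list's median. After EGF, 9 genes of uptake, activation and carnitine shuttle fell and 3 rose, and none of the 7 lists has more than 1 gene called after pB1.

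Of the other binding proteins, 7 of 12 were tested, of which 0 rose and 2 fell after EGF, and edgeR and DESeq2 called 0 after pB1 (2 at an unadjusted p under 0.05). ACBD4, an acyl-CoA binding protein, fell after EGF from 7.85 to 2.90 CPM (-1.43, adjusted p = 1.2e-05). Of the PPAR regulators, malonyl-CoA control genes and PPAR targets, 11 of 13 were tested, of which 3 rose and 5 fell after EGF (median -0.44), and both tools called 0 after pB1 (4 at an unadjusted p under 0.05). PPARG, the nuclear receptor of fat storage, rose after EGF from 25.7 to 48.3 CPM (0.91, adjusted p = 5.9e-06). ACACB, which makes the malonyl-CoA that inhibits CPT1, fell from 10.6 to 2.65 CPM (-2.002, SE 0.19, adjusted p = 1.6e-06, edgeR), and RXRB, a partner of PPARs, from 41.2 to 23.0 CPM (-0.84, adjusted p = 9.7e-06). MLYCD, another malonyl-CoA control gene and named after its values were seen, fell after EGF from 1.22 to 0.395 CPM (-1.61, adjusted p = 0.0043). PPARGC1A is a coactivator of oxidative genes, named after its values were seen. It was at 3.13, 4.18 and 3.44 CPM in untreated, 0.200, 0.101 and 0 after EGF and 3.25, 2.78 and 3.32 after pB1. Its fall after EGF passed the test (adjusted p = 4.8e-07, edgeR). EGF libraries 2 and 3, with 2 and 0 counts, lay below the 3 counts taken as the smallest level shown. ESRRA, PPARA and PPARGC1B of the same list were likewise named after their values were seen. After EGF ESRRA rose (0.58, adjusted p = 7.8e-05, edgeR) and PPARA fell (-0.79, adjusted p = 3.1e-05). PPARGC1B was 0.49 higher (adjusted p = 0.0013), short of the fold limit, and DESeq2 called it (0.50). These lists, like the 9 genes, share the libraries of the tests above.

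For the 4 members called in a comparison, the tested gene with the most similar pattern over the 9 libraries was sought among 10860 genes with a mean of at least 50 counts, by the root mean square difference of log2 CPM centred on untreated cells. It was MUC4 for ACOT1 (0.267), DENND2D for ACOT2 (0.0934), AUNIP for CPT1A (0.0740) and CHSY1 for PLIN2 (0.0874). The measure also grows with the spread between replicates, which relative to the mean was widest, among these 4, for ACOT1 after pB1.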

How the data were processed

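The 9 libraries were assigned to groups from their sample titles. Per the labels, stranded libraries of polyadenylated RNA were sequenced, and reads were mapped to GRCh38 p12 according to the submitters' processing notes. The authors deposited an expected count per gene, not scaled for depth, the gene length, and an FPKM, which is scaled by the authors for effective length and depth. The quantifier and its use of strand are not given in the sources used here. Expected counts were rounded to whole numbers. One quasi-likelihood fit over the 9 libraries (edgeR 4.0.16, run in R 4.3.3, with filterByExpr and TMM) had 6 residual degrees of freedom, and p-values were adjusted by Benjamini-Hochberg over 12394 genes. The SE was the size of the log2 change over the root of F, and intervals were 95%. CPM used TMM factors. Single values were compared by two-sided exact permutation with scipy 1.17.1. The scripts were tested on simulated data. Sequences came from RefSeq and from GENCODE release 44 on GRCh38.

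The members and lists were chosen with earlier results of these data known. The genes named are the members, up to 3 genes of each list with the largest change called for EGF and a mean of at least 50 counts, every list gene called for pB1, and the most similar gene of each called member. Further genes are said in the text to have been named after their values were seen. Alternatives were DESeq2 1.42.0, edgeR on 6 libraries, other scaling and count filters, limma 3.58.1 on log2(FPKM + 1) or log2(FPKM + 0.1), other fold limits, each replicate left out and a replicate block. For ACOT1 and ACOT2 their summed counts were a further alternative. Columns of transcripts were not used. One further list of cell type markers is not reported here.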

Additional observations from a re-analysis of the deposited data

How the results depend on the processing

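Of the alternatives for single members, 487 values kept direction and call, 16 passed where the reported one did not, 6 no longer passed and 1 changed sign: CPT2 after pB1, 0.0046 without pB1 replicate 1 (adjusted p = 0.98), in a range of -0.045 to 0.0046 over libraries left out. The summed counts of ACOT1 and ACOT2 were entered as an alternative for each of these genes. Among the 16 are this sum for ACOT2 after pB1 (-0.81) and for ACOT1 between EGF and pB1 (-0.84). The calls of ACOT1 (adjusted p up to 0.031) and CPT1A (log2 fold change 0.51 to 0.59) after pB1 held with every other tool, scaling, filter and library left out that was run. Under a log2 fold limit of 1 the call of ACOT1 held and that of CPT1A did not, and neither passed glmTreat. The calls of PLIN2 against pB1 did not hold with upper-quartile (0.48) or no scaling, nor with limma (0.43 to 0.46). ACADVL against pB1 passed in several settings, among them upper-quartile scaling (-0.57). Its call stayed as reported in 14 of 21 alternatives, with log2 fold changes of -0.57 to -0.39 over all of them. ACOT1 against pB1 passed with DESeq2 on 9 libraries (-0.62, adjusted p = 0.044), upper-quartile (-0.72) or no scaling (-0.70) and no count filter (-0.63), and not with DESeq2 on 6 libraries (adjusted p = 0.12), RLE factors (adjusted p = 0.060) or limma on log2(FPKM + 1) (-0.45). The cause was not tested. With the adjusted p alone, 8187 genes and 7 members were called after EGF, 509 genes after pB1, and 7214 genes and 6 members between them. With a log2 fold change of at least 1, these were 1892 genes after EGF, 31 genes and 1 member after pB1, and 1458 genes and 0 members between them, where 7 members had an unadjusted p under 0.05. Tested with glmTreat, they were 2919 genes after EGF, 5 genes and 0 members after pB1 (1 at an unadjusted p under 0.05), and 2026 genes and 1 member between them. With limma on unfiltered log2(FPKM + 1), 99 genes were called after pB1, against 183. Leaving out 1 library gave 102 (without untreated replicate 1 or pB1 replicate 3) to 436 genes (without pB1 replicate 1) after pB1, and 109 without pB1 replicate 2, and 2 to 4 members between EGF and pB1, with 4 without pB1 replicate 2. With upper-quartile factors 1396 of 4617 genes called after EGF were higher, against 1875 of 4578. Whether replicate numbers in the titles pair the samples cannot be decided with 3 libraries per group. The correlation of same-numbered deviations from the group means, against untreated libraries, was 0.0039 to 0.0449 for EGF and -0.0304 to 0.207 for pB1. For different numbers it was -0.0756 to 0.0408 for EGF and -0.253 to 0.163 for pB1. With the replicate block 186 genes and 2 members were called after pB1, 4560 and 3 after EGF and 3550 and 2 between them. FABP5, below 3 counts in every library, could not be tested.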
